A study of Mus musculus with 5 samples.

Results

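The nuclear genes of respiratory complexes II, III, IV and V, with cytochrome c and the assembly factors that share their names, were followed in RNA of immortalized mouse embryonic fibroblasts labelled wild type or SIRT3 -/-. Members were the genes whose symbols begin with Sdha to Sdhd or Sdhaf and a digit, Uqcr, Uqcc, Cox and a digit, or Atp5, together with Cyc1 and Cycs. These symbols matched 60 of the 23337 genes in the table. Of the 60, 6 belong to complex II, 10 to complex III, 1 is cytochrome c, 25 belong to complex IV and 15 to complex V. The other 3 are counted apart. Cox4nb encodes a subunit of a membrane protein complex of the endoplasmic reticulum (Emc8), Atp5sl (Dmac2) is an assembly factor of complex I, and Atp5s (Dmac2l) is known as coupling factor B of ATP synthase. Subunits encoded by mitochondrial DNA are not analysed here.

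The libraries came from fibroblasts of strain 129Sv, all immortalized with the SV40 T antigen, which was shared by both genotypes. The comparison was between 3 libraries labelled WT (wild type) and 2 labelled KO (SIRT3 -/-), and no treatment is named for either. Nothing in the labels ties a library to its own culture, or a genotype to more than 1 line. The p-values below therefore set the difference between the groups only against the spread of these libraries, and that spread may be technical. Genotype and cell line cannot be told apart where each genotype is 1 line.

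The respiratory chain sits in the inner mitochondrial membrane. Complex II takes electrons from succinate, complex III passes electrons from ubiquinol to cytochrome c, complex IV (cytochrome c oxidase) hands them to oxygen, and complex V (ATP synthase) uses the resulting proton gradient to make ATP. Except for complex II, each of these complexes joins nuclear-encoded subunits to subunits encoded in mitochondria, and dedicated assembly factors insert haem, copper, flavin and iron-sulphur groups. SIRT3 is an NAD-dependent deacetylase of the mitochondrial matrix whose known substrates include respiratory chain proteins, so its best known action on these complexes is on the proteins. Fibroblasts use the ubiquitous or liver forms of the complex IV subunits, while several heart and muscle, lung or testis forms are kept for other tissues.

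Nuclear respiratory genes are textbook targets of the transcription factors NRF1, GABP (an ETS factor) and YY1. The promoter of 1 called member from each of 4 groups (complex II, complex III with cytochrome c, complex IV and complex V) is printed to show these sites: the member with the smallest adjusted p in its group that had an entry in the RefSeq promoter table. Each window holds 250 bases before and 50 after a transcription start, reads 5′ to 3′ on the gene's strand, is numbered on GRCm38.p6 (the build called mm10), and lies on the minus strand. Capitals mark the letters searched on both strands: GCGCATGC for NRF1, CCGGAAG for ETS factors and AAGATGGCG for YY1. They run in the reverse complement where the site lies on the other strand.
Sdhaf2 (chr19:10525160-10525459, ETS): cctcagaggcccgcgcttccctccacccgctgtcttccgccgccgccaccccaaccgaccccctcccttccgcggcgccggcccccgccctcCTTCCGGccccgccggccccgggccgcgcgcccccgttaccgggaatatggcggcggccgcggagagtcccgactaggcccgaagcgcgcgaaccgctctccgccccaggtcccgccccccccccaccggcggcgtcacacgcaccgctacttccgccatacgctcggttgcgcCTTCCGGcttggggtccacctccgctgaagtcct
Cycs (chr6:50566520-50566819, NRF1): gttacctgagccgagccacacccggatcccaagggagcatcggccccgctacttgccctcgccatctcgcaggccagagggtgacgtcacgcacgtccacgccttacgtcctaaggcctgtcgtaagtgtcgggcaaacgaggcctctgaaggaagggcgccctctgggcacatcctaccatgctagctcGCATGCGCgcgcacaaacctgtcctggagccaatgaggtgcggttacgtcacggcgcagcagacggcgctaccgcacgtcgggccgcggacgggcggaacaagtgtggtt
Cox15 (chr19:43752951-43753250, ETS): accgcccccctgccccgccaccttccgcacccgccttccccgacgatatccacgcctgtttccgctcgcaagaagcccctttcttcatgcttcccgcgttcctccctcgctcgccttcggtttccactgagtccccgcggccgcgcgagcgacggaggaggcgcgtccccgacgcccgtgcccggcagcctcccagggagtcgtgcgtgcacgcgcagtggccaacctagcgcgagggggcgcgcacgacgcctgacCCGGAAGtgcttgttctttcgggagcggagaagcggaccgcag
Atp5h (chr11:115419870-115420169, ETS): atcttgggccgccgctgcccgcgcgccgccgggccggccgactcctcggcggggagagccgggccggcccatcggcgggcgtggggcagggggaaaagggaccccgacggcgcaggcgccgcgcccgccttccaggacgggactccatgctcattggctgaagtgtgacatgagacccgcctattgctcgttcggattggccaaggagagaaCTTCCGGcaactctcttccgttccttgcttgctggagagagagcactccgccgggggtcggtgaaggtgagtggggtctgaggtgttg
The Sdhaf2 window held 2 ETS matches, 1 of them past the start. The other windows held 1 match each, and that of Cox15 also lay past the start. Of the 60 members, 46 had entries in the table, with 51 windows in all. NRF1 letters were in 15.7% of the members' windows (8 members), against 2.71% of all 32851 windows and 5.08% of the 13064 windows of genes tested. ETS letters were in 35.3% (17 members), against 8.86% and 16.9%. YY1 letters were in 9.8% (4 members: Atp5j, Atp5j2, Atp5sl and Cox10), against 1.4% and 2.87%. At least 1 of the 3 was in 47.1% of the members' windows, 12.1% of all windows and 23.0% of those of genes tested. These are matches of letters, and binding was not measured.

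The 5 libraries held between 33473103 and 41758681 reads assigned to genes, and both libraries labelled KO had fewer than any labelled WT. Fibroblast markers summed to 4350 to 4480 RPKM (reads per kilobase of gene, scaled to the size of the library) in the WT libraries and 3850 to 4040 RPKM in those labelled KO, led by vimentin (Vim, mean 2280 RPKM). Muscle markers summed to 0.857 to 0.893 RPKM in WT and 2.60 to 2.81 RPKM in KO, with Myh1, Myh2, Myh4 and Mb at 0 in all libraries, and brown fat markers to 0.205 to 0.338 RPKM with Cidea at 0. Sirt3 itself was at 170, 149 and 118 normalized counts in WT replicates 1, 2 and 3 and at 200 and 217 in KO replicates 1 and 2. Normalized counts are reads divided by a size factor for each library. The Sirt3 transcript was thus higher in both libraries labelled KO, by 0.53 on the log2 scale (limma, adjusted p = 0.00445), which goes against the label. With the shift of its chromosomal neighbours removed, as described further on, the difference was 0.22 (limma adjusted p = 0.232). Which part of the gene was removed is not given in the sources used here, so both groups are called by their labels throughout. Every direction below is that of the libraries labelled KO against those labelled WT. Each would turn if the labels had been exchanged, which was not tested.

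The members were abundant transcripts. The median tested member was at 55.6 RPKM averaged over the 5 libraries, against 9.66 RPKM for all genes tested, which places it at the 89.5th percentile. Highest among the members was Atp5b, the catalytic beta subunit of ATP synthase, at a mean of 975 RPKM and rank 13 among all genes. Within complex II, the catalytic and anchor subunits lay between 59.2 and 92.0 RPKM and the assembly factors Sdhaf1 and Sdhaf2 at 7.88 and 19.9 RPKM. In complex IV the tested subunits had a median of 62.8 RPKM and the assembly factors one of 14.2 RPKM. Cytochrome c (Cycs) was at 11.1 RPKM, below every tested subunit of complexes II and III. Levels per length depend on the gene model the authors used, and members that share sequence with other genes may be under- or overcounted.

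**Figure D1:**
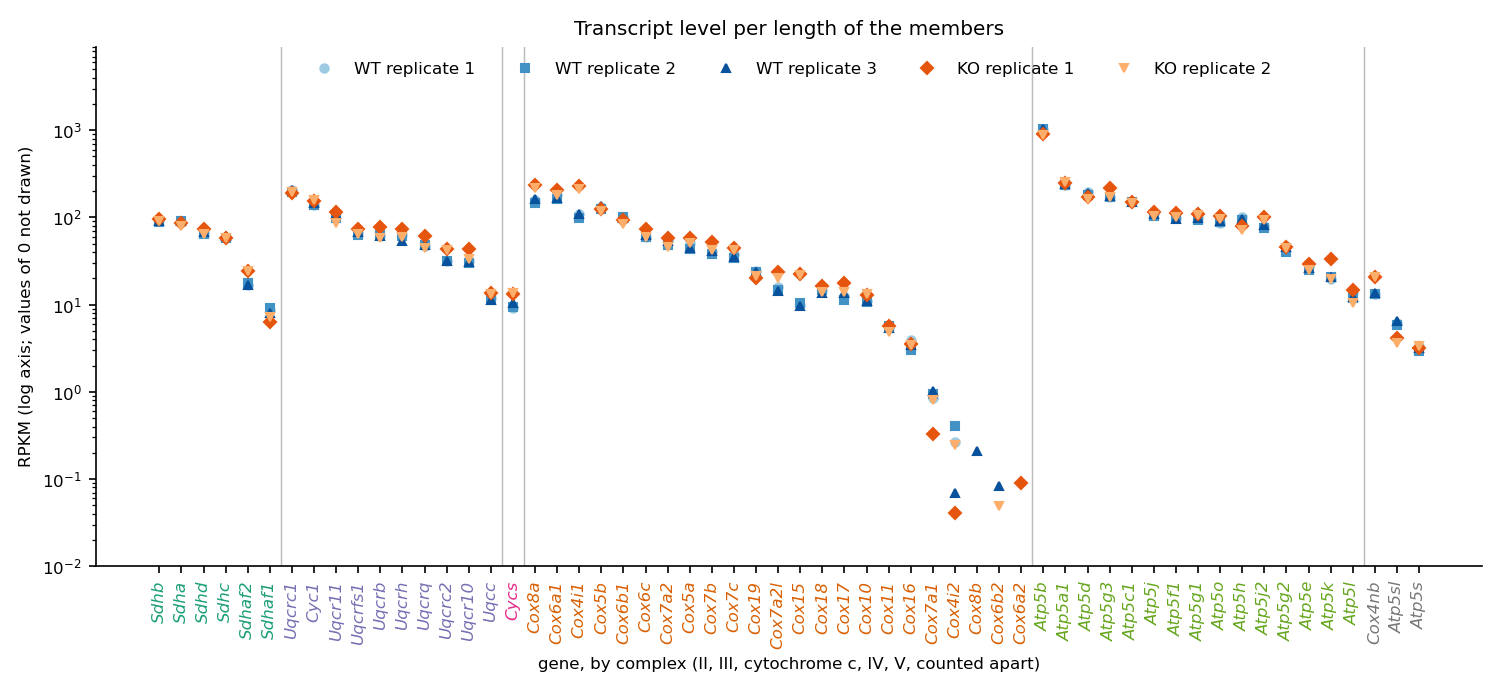
RPKM (log axis) of each member with a value above 0 in at least 1 of the 5 libraries, ordered by complex and level, with 1 point per library. Subunits such as Atp5b (mean 975 RPKM) and Uqcrc1 (199 RPKM) stand well above assembly factors such as Sdhaf1 (7.88 RPKM), and the muscle and testis forms of complex IV lie at the bottom.

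The RPKM of each library was also summed over each complex. Complex IV summed to 1019, 949 and 1004 RPKM in WT replicates 1, 2 and 3. It summed to 1301 and 1172 RPKM in KO replicates 1 and 2, so both KO libraries were above every WT library. Within this sum Cox4i1 went from a mean of 105 RPKM in WT to 223 RPKM in KO, and Cox8a from 156 to 226 RPKM. Complex V summed to 2455, 2427 and 2465 RPKM in WT and 2437 and 2283 RPKM in KO, where the groups overlapped, and its 5 F1 genes alone to 1627, 1629 and 1636 RPKM in WT against 1507 and 1467 RPKM in KO, with no overlap. Complex II gave 333, 330 and 337 RPKM in WT and 343 and 326 RPKM in KO. For complex III, the sums were 775, 742 and 768 RPKM in WT and 849 and 755 RPKM in KO. The groups overlapped in complexes II and III, and in both the highest library was KO replicate 1. These sums are descriptions and are dominated by the most abundant genes. RPKM sums were not level between libraries. All genes tested summed to 342800 to 345900 RPKM in WT and to 361500 and 353500 RPKM in KO replicates 1 and 2. Genes under 1000 bp outside the members summed to 44790 to 47030 RPKM in WT and to 53390 and 48900 RPKM in KO. In bulk RNA, a change in the share of cells of some type and a change in RNA per cell cannot be told apart.

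Among the 54 members with a normalized count of at least 10 in 2 or more libraries, 23 were higher and 8 lower in KO than in WT at the threshold of 0.05 on the adjusted p, and 23 did not pass. The other 6 members, Cox4i2, Cox6a2, Cox6b2, Cox7b2, Cox8b and Cox8c, were too low to test. The test was limma on log2(normalized count + 1), with Benjamini-Hochberg adjustment over all 13062 genes tested, and fold changes are on that scale, KO over WT. The members' shares, 42.6% higher and 14.8% lower, stand beside 32.6% higher and 32.6% lower of all genes tested. The median log2 fold change was 0.10 over the members and -0.0023 over all genes tested. Without the 3 genes counted apart, 22 were higher and 7 lower, with a median of 0.11. Both KO libraries lay above all 3 WT libraries for 22 members and below them for 10, against 37.8% and 37.6% of all genes tested. Most of the differences were small: the median size among called members was 0.27 on the log2 scale, against 0.44 among all called genes, and only Cox15 and Cox4i1 differed by 2-fold or more.

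**Figure D2:**
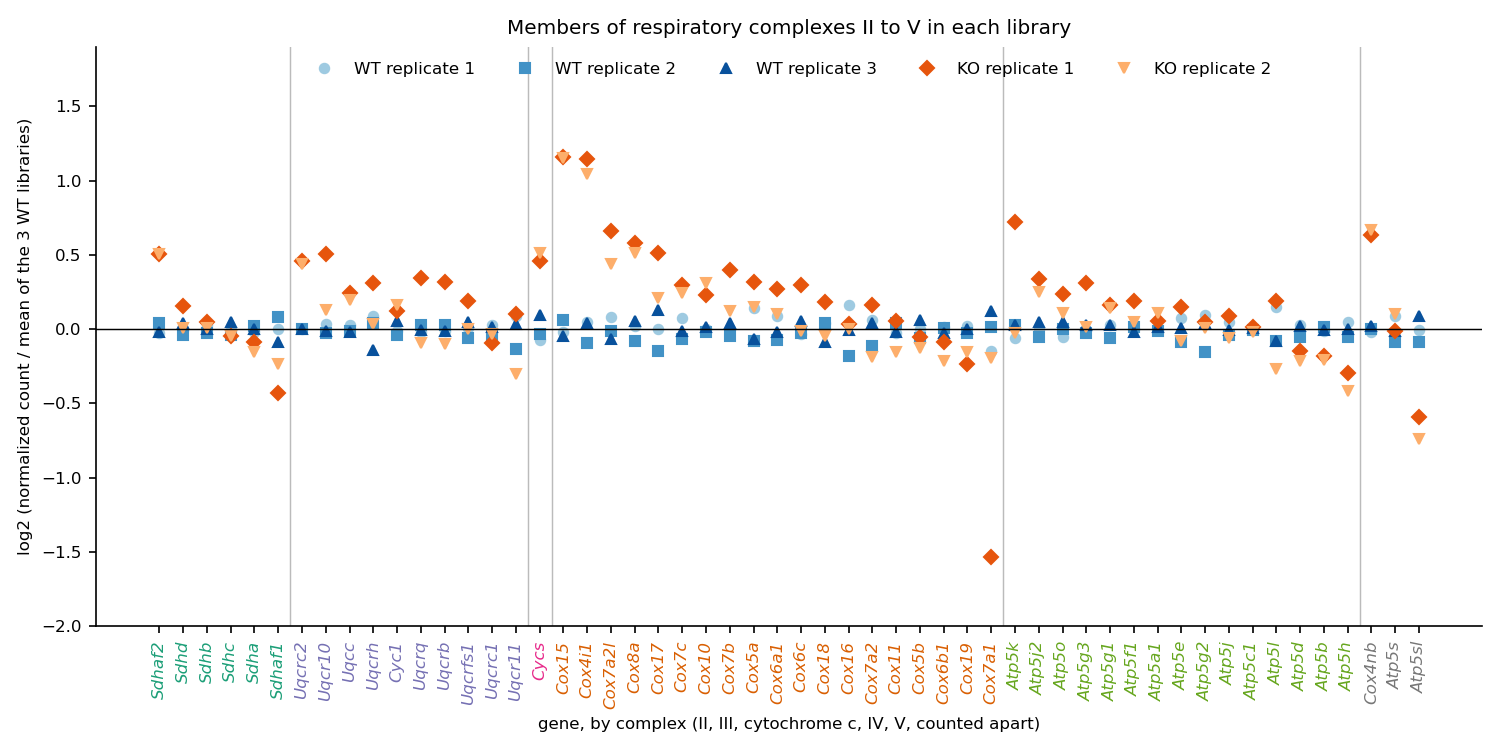
Log2 of each library's normalized count over the mean of the 3 WT libraries, for the 54 tested members grouped by complex and ordered by fold change. Blue points are WT libraries and orange points KO libraries. Cox15 and Cox4i1 stand about 1 log2 unit above WT in both KO libraries, and for many short members, such as Atp5k, KO replicate 1 lies well above KO replicate 2.

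The KO libraries differed from each other over these genes. KO replicate 1 was above KO replicate 2 for 44 of the 54 tested members, by a median of 0.094 on the log2 scale, while over all genes tested it was higher for 47.7%. Between WT libraries the first of each pair was higher for 37 (replicates 1 and 2), 27 (1 and 3) and 15 (2 and 3) of the 54. The member genes are short, with a median length in the table of 899.5 bp against 2870 bp over all genes tested. For the 29 tested members under 1000 bp the median difference between the KO libraries was 0.15, and for the 25 longer ones it was 0.035. Other genes under 1000 bp showed it too: KO replicate 1 was higher for 70.4% of 954, by a median of 0.11. Across the 54 members the difference between the KO libraries and log2 length had a Spearman rho of -0.55 and a Pearson r of -0.27, given as a description of genes measured in the same libraries.

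**Figure D3:**
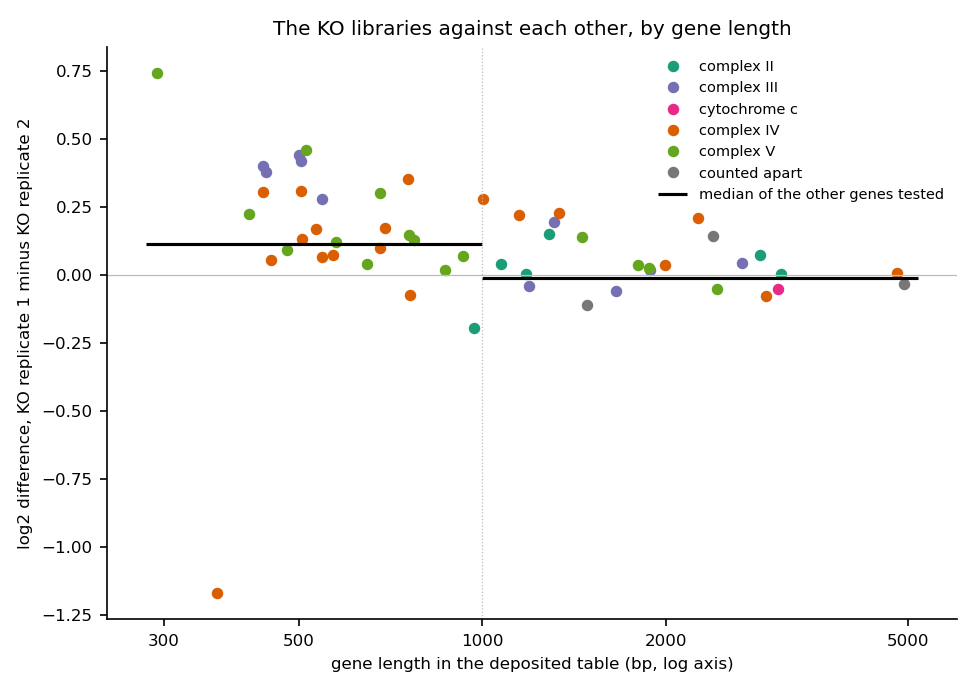
Log2 difference between KO replicate 1 and KO replicate 2 for each tested member against gene length (log axis), coloured by complex. Black lines give the median of the other genes tested, 0.11 under 1000 bp and -0.013 at 1000 bp or more. Most members under 1000 bp lie above 0, and Cox7a1, at -1.17, has very few reads.

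The number of members called therefore depended on the KO library kept. Without KO replicate 1, 15 were higher and 9 lower (29.5% and 31.3% of all genes tested), with a median of 0.0085. Without KO replicate 2, 30 were higher and 7 lower (30.7% and 32.3% of all genes), with a median of 0.19. With a smooth trend of fold change on gene length removed, 13 were higher and 11 lower (33.3% and 31.6% of all genes), with a median of 0.038. Higher members outnumbered lower ones under each of these settings, but by as little as 13 to 11. The calls lost without KO replicate 1 were Uqcrh, Uqcr10, Cox5a, Cox6a1, Cox7b, Cox17, Atp5f1, Atp5o and Atp5g3 among the higher members and Sdhaf1 and Cox19 among the lower. Removing the length trend ended the calls of the same higher members except Cox7b, and also those of Cox7c and Atp5g1. DESeq2 was run on whole reads recovered in 4 libraries, leaving out WT replicate 2. With a step of 0.989 normalized counts per read, that library has values close to whole numbers before any recovery, so the recovery could not be checked in it. DESeq2 called 15 members higher and 4 lower (27.1% and 26.2% of the genes it tested), a change of both the test and the libraries, while limma without WT replicate 2 called 20 and 7. The authors' deposited table called 21 and 6 (25.7% and 24.8%). The part of library quality in these differences was not tested.

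Complex II, succinate dehydrogenase, had 1 higher and 2 lower of its 6 members (16.7% and 33.3%), all tested, with a median of -0.0084. Of all genes tested, 32.6% were higher and 32.6% lower. Without KO replicate 1 complex II had 1 higher and 1 lower (all genes tested, 29.5% and 31.3%). Without KO replicate 2 it had 2 higher and 1 lower (all genes tested, 30.7% and 32.3%). Its subunits changed little. The flavoprotein Sdha, which oxidizes succinate, was at 9440, 9710 and 9599 normalized counts in WT replicates 1, 2 and 3 and at 9047 and 8607 in KO replicates 1 and 2. Both KO libraries were below all WT libraries, but only by a little, a fall of 0.12 on the log2 scale (SE 0.038, limma adjusted p = 0.00887). Without KO replicate 2 the difference was -0.083 (adjusted p = 0.0656). The iron-sulphur subunit Sdhb and the membrane anchors Sdhc and Sdhd did not pass, with log2 fold changes of 0.026, -0.043 and 0.084.

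The assembly factors of complex II went in opposite directions. Sdhaf2, which attaches flavin to SDHA and whose promoter is printed above, was at 1921, 2009 and 1929 normalized counts in WT and at 2777 and 2775 in KO, 1.42-fold higher. The KO libraries were nearly equal and well clear of WT (log2 fold change 0.51, SE 0.046, limma adjusted p = 3.71e-09). Sdhaf1, needed to place iron-sulphur clusters in SDHB, was at 307, 326 and 289 in WT and 228 and 261 in KO. Again the groups did not overlap, and it fell by 0.33 on the log2 scale (SE 0.11, limma adjusted p = 0.0132). It did not pass without WT replicate 2 (-0.29, adjusted p = 0.0615) or without KO replicate 1 (-0.23, adjusted p = 0.117).

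Complex III had 5 higher and no lower of 10 members, all tested, with a median of 0.14. Of all genes tested, 32.6% were higher and 32.6% lower. Both KO libraries were clear above WT for 4 of the 10, close to the share of 37.8% over all genes tested. Uqcrc2, a core protein of the matrix side, was at 2217, 2217 and 2219 normalized counts in the WT libraries and 3045 and 3007 in those labelled KO. The WT libraries were almost identical, and both KO libraries lay above them. The 1.36-fold rise was 0.45 on the log2 scale (SE 0.044, limma adjusted p = 1.15e-08). Of the 50-base windows of the Uqcrc2 transcript, 24.8% also occur in other genes. The other core protein, Uqcrc1, did not pass, at a mean of 12410 ± 325 (SD, n = 3) in WT and 11870 ± 353 (SD, n = 2) in KO. Uqcc, an assembly factor for cytochrome b, was at 1160, 1124 and 1121 in WT and 1341 and 1303 in KO. It rose by 0.22 on the log2 scale (SE 0.057, limma adjusted p = 0.00179) with no overlap. Cyc1, the haem-bearing cytochrome c1, rose by 0.14 (SE 0.040, limma adjusted p = 0.00333).

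The small subunits of complex III were the ones in which the KO libraries disagreed. Uqcr10 was at 515, 494 and 497 normalized counts in WT and at 713 and 548 in KO, so that both KO libraries were above WT but far apart. It rose by 0.32 on the log2 scale (limma adjusted p = 0.00587), and without KO replicate 1 the value was 0.13 (adjusted p = 0.264). Uqcrh, the hinge protein that helps cytochrome c1 meet cytochrome c, was at 1276, 1237 and 1090 in WT and 1489 and 1229 in KO. Here KO replicate 2 lay within the WT range, and the difference of 0.18 (limma adjusted p = 0.0478) did not pass without WT replicate 2 (0.20, adjusted p = 0.0771), WT replicate 3 (0.11, adjusted p = 0.22) or KO replicate 1 (0.036, adjusted p = 0.694). Uqcrb, Uqcrq and Uqcr11, also small subunits, and the Rieske protein Uqcrfs1 did not pass, with KO replicate 1 above KO replicate 2 by 0.42, 0.44, 0.40 and 0.19 on the log2 scale. For Uqcrb, 43.4% of the 50-base windows of its transcript occur in other genes. Without KO replicate 1 complex III had 3 higher and 1 lower (all genes tested, 29.5% and 31.3%). Without KO replicate 2 it had 8 higher and 1 lower (all genes tested, 30.7% and 32.3%).

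Cytochrome c itself, the mobile carrier between complexes III and IV, rose. Cycs was at 1030, 1057 and 1158 normalized counts in WT and at 1489 and 1543 in KO, 1.40-fold higher (log2 fold change 0.49, SE 0.061, limma adjusted p = 4.39e-07). The KO libraries were close together and both lay above every WT library. The gene spans chr6:50562563-50566569 on the minus strand, and 28.5% of the 50-base windows of its transcript also occur in other genes of the GENCODE transcript set, so some of its reads could belong elsewhere.

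Complex IV held the members with the largest rises. Of its 25 members 19 were tested, and 10 were higher and 2 lower (52.6% and 10.5%), with a median of 0.19. Of all genes tested, 32.6% were higher and 32.6% lower. The subunits gave 6 higher and 1 lower of 11 tested, and the assembly factors 4 higher and 1 lower of 8. Without KO replicate 1 the complex had 6 higher and 3 lower (all genes tested, 29.5% and 31.3%). Without KO replicate 2 it had 12 higher and 1 lower (all genes tested, 30.7% and 32.3%).

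Cox15, with Cox10 the enzyme that makes haem A for cytochrome oxidase, had the largest rise of any member. It was at 1743, 1837 and 1709 normalized counts in WT and 3936 and 3914 in KO, 2.23-fold higher (log2 fold change 1.16, SE 0.047, limma adjusted p = 4.13e-15). The KO libraries were nearly equal. Cox15 lies at chr19:43733254-43753000 on the minus strand and its 5′ end overlaps Entpd7 on the other strand by 600 bp. Entpd7 rose too, by 1.04 (limma adjusted p = 4.63e-12). Whether the counting used strand is not given in the sources used here, so reads of the shared stretch cannot be assigned to either gene. Cox10, which acts before Cox15 in the same route, rose less, from 1169 ± 12.6 (SD, n = 3) to 1412 ± 54.3 (SD, n = 2), or 0.27 on the log2 scale (limma adjusted p = 0.000231).

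Cox4i1, the common form of subunit 4, which enters complex IV at an early step, was the subunit with the largest rise. It was at 2723, 2459 and 2701 normalized counts in WT and at 5817 and 5434 in KO, 2.14-fold higher (log2 fold change 1.10, SE 0.049, limma adjusted p = 1.99e-14). Both KO libraries were far above every WT library. The gene spans chr8:120668225-120674209 on the plus strand. Its neighbour Cox4nb, which lies on the other strand and starts 137 bp away, is a member by name alone and was at 2403, 2436 and 2475 in WT and 3777 and 3872 in KO. It was 1.57-fold higher, with a log2 fold change of 0.65 (limma adjusted p = 1.91e-11), and its product is no part of cytochrome oxidase.

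Other complex IV members rose less. Cox8a, the ubiquitous form of subunit 8, was at 3181, 2961 and 3255 normalized counts in WT and 4679 and 4473 in KO, with no overlap (log2 fold change 0.55, SE 0.046, limma adjusted p = 9.86e-10). Cox7a2l, which links complexes III and IV into supercomplexes, was at 676, 633 and 611 in WT and 1010 and 867 in KO. It too showed no overlap (log2 fold change 0.55, SE 0.077, limma adjusted p = 2.26e-06). Cox17, the copper chaperone of cytochrome oxidase, was at 200, 180 and 218 in WT and 284 and 230 in KO. Its groups were close and the rise of 0.36 (SE 0.13, limma adjusted p = 0.0189) did not pass without KO replicate 1 (0.21, adjusted p = 0.235) or without WT replicate 2 (0.29, adjusted p = 0.0887). Cox5a, Cox7b and Cox7c, subunits with a single common form in these cells, rose by 0.24, 0.26 and 0.27 (limma adjusted p = 0.00493, 0.00144 and 0.00319). The first and the second did not pass without KO replicate 1 (adjusted p = 0.0727 and 0.0901). For Cox17, Cox5a and Cox7c, 52.7%, 32.0% and 48.2% of the 50-base windows occur in other genes.

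The lower members of complex IV were Cox6b1 and Cox19. Cox6b1, on the face of the complex that meets cytochrome c, was at 1872, 1864 and 1816 normalized counts in WT and 1747 and 1595 in KO. The groups did not overlap, with a log2 fold change of -0.15 (SE 0.053, limma adjusted p = 0.0171). Without WT replicate 1 it was -0.14 (adjusted p = 0.0629), and without KO replicate 2 it was -0.083 (adjusted p = 0.214). Cox19, an assembly factor, was at 672 ± 10.7 (SD, n = 3) in WT and 588 ± 22.0 (SD, n = 2) in KO, a log2 fold change of -0.19 (limma adjusted p = 0.0259). It did not pass without KO replicate 1 (-0.15, adjusted p = 0.125), without WT replicate 1 (-0.18, adjusted p = 0.0769) or without WT replicate 3 (-0.19, adjusted p = 0.0633). Cox5b, Cox6c, Cox11, Cox16 and Cox18 did not pass, with log2 fold changes of -0.088, 0.15, -0.052, 0.025 and 0.072. For Cox16 and Cox5b, 88.7% and 30.6% of the 50-base windows occur in other genes.

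Subunit forms of complex IV that belong to muscle, lung or testis were at or near 0 in both groups, beside abundant common forms. Cox6a1, the liver form, was at 3551, 3173 and 3303 normalized counts in WT and 4040 and 3593 in KO, just clear of each other, with a log2 fold change of 0.19 (limma adjusted p = 0.00335, and 0.11 with adjusted p = 0.079 without KO replicate 1). Its muscle form Cox6a2 was at 0 in every library except KO replicate 1, where it was at 2.20. Cox4i2, the lung form, was at 7.07, 10.9, 1.85, 1.10 and 6.67 in WT replicates 1 to 3 and KO replicates 1 and 2. That is 0.242%, 0.412%, 0.0639%, 0.0177% and 0.115% of the summed RPKM of Cox4i1 and Cox4i2, so that Cox4i1 made up nearly all of it in both groups. Cox4i2 was too low to test and its groups overlapped.

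Subunit 7a was the position with the largest share of a muscle form. Cox7a1 was at 11.5, 12.9 and 13.9 normalized counts in WT and 4.41 and 11.1 in KO, against 1514, 1343 and 1493 in WT and 1624 and 1273 in KO for the liver form Cox7a2. Cox7a1 thus held 1.54% to 1.93% of the pair's RPKM in WT and 0.556% and 1.77% in KO. Neither gene passed (limma adjusted p = 0.174 and 0.918). Cox7a2 overlaps Tmem30a on its own strand by 2482 bp, so its count is uncertain. The value of Cox7a2 turned on the KO library kept: it was -0.19 without KO replicate 1 (adjusted p = 0.0176) and 0.17 without KO replicate 2 (adjusted p = 0.0294). Cox6b2 was at 0 except for 1.85 in WT replicate 3 and 1.11 in KO replicate 2, and Cox8b was at 0 except for 2.78 in WT replicate 3. The testis forms Cox7b2 and Cox8c were at 0 in all libraries, which allows, at 3 reads per library, shares of up to 0.17% to 0.209% of Cox7b and 0.0706% to 0.1% of Cox8a reads, for counting error only.

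Complex V gave 5 higher and 3 lower of 15 members, all tested, with a median of 0.037. The shares over all genes tested were 32.6% higher and 32.6% lower. The higher share of complex V was close to that of all genes tested, and its lower share was below it. In the F1 head, which carries the catalytic sites, none of 5 was higher and 2 were lower. The peripheral stalk had 2 higher and 1 lower of 4, the c ring genes 2 higher of 3, and the small Fo subunits 1 higher of 3. Without KO replicate 1 complex V had 3 higher and 3 lower (all genes tested, 29.5% and 31.3%), and no gene of the peripheral stalk was higher. Without KO replicate 2 it had 6 higher and 3 lower (all genes tested, 30.7% and 32.3%), with 2 stalk genes higher.

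In the head, Atp5b was at 70780, 72140 and 71160 normalized counts in the WT libraries and 62910 and 61910 in those labelled KO. No libraries overlapped, and this most abundant member fell by 0.19 on the log2 scale (SE 0.039, limma adjusted p = 0.000162). Atp5d, the delta subunit of the central stalk, was at 6659, 6299 and 6637 in WT and 5894 and 5626 in KO. It fell by 0.18 (SE 0.040, limma adjusted p = 0.000503), again with no overlap. The alpha subunit Atp5a1, partner of Atp5b in the catalytic ring, was at 21290 ± 215 (SD, n = 3) in WT and 22530 ± 589 (SD, n = 2) in KO and did not pass (0.082, limma adjusted p = 0.0546). Without KO replicate 1 it did, at 0.11 (adjusted p = 0.00943). The gamma and epsilon genes Atp5c1 and Atp5e did not pass, at -0.0033 and 0.037.

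In the peripheral stalk, which holds the head still, Atp5h (subunit d) had the largest fall of a complex V gene. It was at 2132, 1991 and 2058 normalized counts in WT and 1678 and 1543 in KO, 1.28-fold higher in WT (log2 fold change -0.36, SE 0.053, limma adjusted p = 4.56e-06). There was no overlap. Of the 50-base windows of its transcript, 50.5% also occur in other genes, so its count depends on how such reads were treated. Atp5o, the OSCP subunit at the top of the stalk, was at 2443, 2534 and 2618 in WT and 2990 and 2733 in KO. It rose by 0.18 (SE 0.049, limma adjusted p = 0.00365), and by 0.11 without KO replicate 1, where it did not pass (adjusted p = 0.0696). Atp5f1 (subunit b) rose by 0.12 (limma adjusted p = 0.0198), and did not pass without KO replicate 1 (0.049, adjusted p = 0.341), WT replicate 1 (0.12, adjusted p = 0.0612) or WT replicate 3 (0.11, adjusted p = 0.065). Atp5j (subunit F6) did not pass. For Atp5o and Atp5f1, 40.9% and 28.5% of the 50-base windows occur in other genes.

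In the membrane part, Atp5j2 (subunit f) was at 1385, 1340 and 1435 normalized counts in WT and 1755 and 1649 in KO. The libraries of the groups were well apart, and the gene rose by 0.30 on the log2 scale (SE 0.055, limma adjusted p = 7.15e-05). Atp5k (subunit e), the shortest tested member at 292 bp, was at 219 ± 7.72 (SD, n = 3) in WT, and in KO at 361 in replicate 1 and 216 in replicate 2. Its KO libraries differed by 0.74 on the log2 scale, and it did not pass (0.35, limma adjusted p = 0.0528). Atp5l (subunit g) did not pass either, and 84.8% of its 50-base windows occur in other genes.

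The c ring genes Atp5g1, Atp5g2 and Atp5g3 encode the same mature protein with different import sequences, which makes their shares of interest. Atp5g1 was at 3182, 2989 and 3181 normalized counts in WT and 3489 and 3446 in KO, with no overlap and a rise of 0.15 (SE 0.044, limma adjusted p = 0.00423). Atp5g2 was at 1136, 955 and 1095 in WT and 1100 and 1070 in KO, overlapping, and did not pass (0.035, limma adjusted p = 0.677). Atp5g3 was at 4333, 4261 and 4427 in WT and 5388 and 4375 in KO, so that KO replicate 2 lay within WT. Its difference of 0.16 (limma adjusted p = 0.0191) did not pass without WT replicate 1 (0.16, adjusted p = 0.0719), WT replicate 2 (0.15, adjusted p = 0.0896) or KO replicate 1 (0.012, adjusted p = 0.842). Of the summed RPKM, Atp5g1, Atp5g2 and Atp5g3 held 30.9%, 14.1% and 55.0% in WT and 31.2%, 13.1% and 55.8% in KO. Shares differed between the groups by 0.3, -1.0 and 0.8 percentage points, while the KO libraries had SDs of 2.45, 0.884 and 3.34 points. Atp5g1 and Atp5g2 share 56.2% and 46.4% of their 50-base windows with other genes, so these shares depend on the authors' handling of shared reads.

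Of the 3 genes counted apart, Cox4nb was higher (above), Atp5sl was lower and Atp5s did not pass. Atp5sl was at 545 ± 33.4 (SD, n = 3) normalized counts in WT and 344 ± 24.2 (SD, n = 2) in KO, a log2 fold change of -0.66 (SE 0.090, limma adjusted p = 1.41e-06). It had the largest fall of any called member.

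Members tended to go the way of the genes around them on their chromosome. For each member the median log2 fold change of the other tested genes within 5 Mb on either side was taken, leaving the members out. Around Cox4i1 and Cox4nb on chromosome 8 this median was 0.96 over 93 genes. Cox15, at 1.16, stood among neighbours with a median of 0.50 (105 genes), and the other chromosome 19 members, Sdhaf2 and Cox8a, among neighbours with a median of 0.31. Neighbour medians were 0.42 for Uqcrc2, 0.32 for Cycs and 0.35 for Cox7a2l. On the lower side they were -0.37 for Atp5h, -0.32 for Atp5b, -0.28 for Atp5d, -0.23 for Sdhaf1, -0.21 for Cox6b1 and -0.15 for Sdha. All 8 lower members had a negative neighbour median, as did 33 of the 54 tested, and 15 of the 23 higher members had a positive one. Across the 54 members the fold change and the neighbour median had a Pearson r of 0.79 and a Spearman rho of 0.75, a description of genes from the same 5 libraries, some of which share neighbours.

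**Figure D4:**
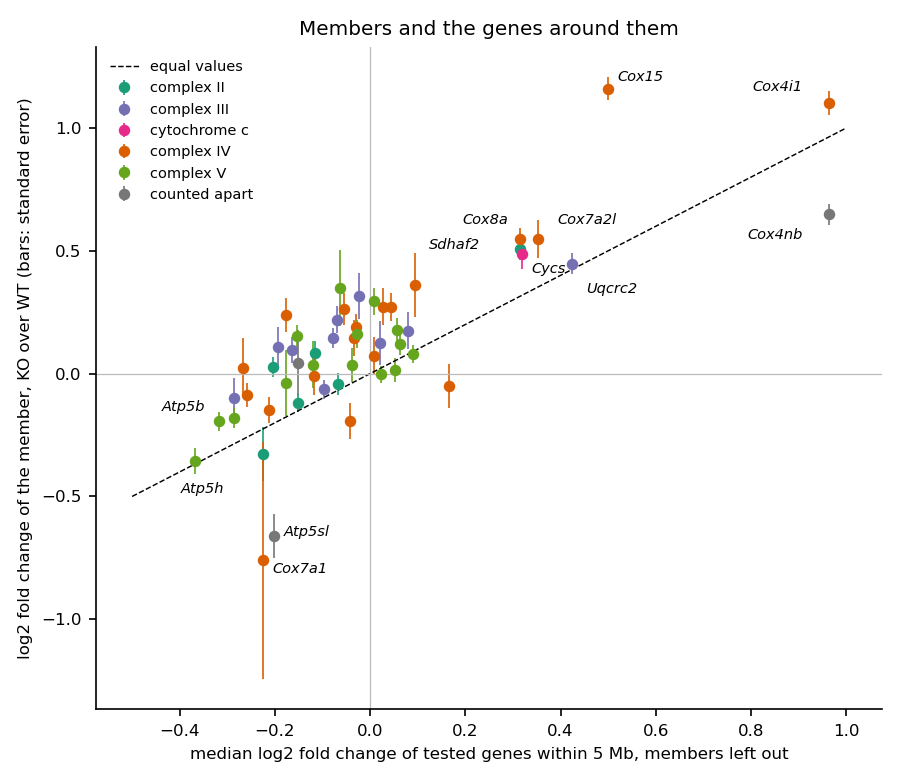
Log2 fold change of each tested member (bars, standard error) against the median log2 fold change of the tested genes within 5 Mb, members left out. The dashed line marks equal values. Cox4i1 lies close to it at a neighbour median of 0.96, Cox15 lies well above it at 0.50, and Atp5h lies on it at -0.37.

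With the neighbour median subtracted from the KO libraries before the fit, 28 members were higher and 3 lower, against 30.1% and 29.7% of all genes tested. The members' median was then 0.16. The neighbour median was subtracted as a fixed value, so adjusted p under this setting leave out the spread among the neighbours. Whether a member departs from its neighbourhood was therefore not tested, here or for the other genes given with the neighbour median removed. Of the 23 higher members 18 remained higher. Uqcrc2 (0.024, limma adjusted p = 0.668), Uqcrh (0.096, adjusted p = 0.285), Cox17 (0.27, adjusted p = 0.0821) and Atp5f1 (0.055, adjusted p = 0.279) no longer passed, and Cox4nb turned to -0.31 (limma adjusted p = 5.24e-06). Cox15 was at 0.65 (limma adjusted p = 1.77e-10), while Cox4i1 came down to 0.13 (adjusted p = 0.0271). Sdhaf2, Cox8a and Cycs were at 0.19, 0.23 and 0.17 and still passed (limma adjusted p = 0.00143, 0.000201 and 0.025). These values depended on the window. With 2 Mb on either side Cox15 was at 0.39, below Cox5a at 0.44, and with 10 Mb it was at 0.71, passing in both (limma adjusted p = 7.29e-07 and 4.25e-11). Cycs did not pass with 2 Mb (0.020, adjusted p = 0.802) or 10 Mb (0.11, adjusted p = 0.147), and Cox7a2l, at 0.20 with 5 Mb, did not pass with 10 Mb (0.14, adjusted p = 0.129). Of the 8 lower members, only Atp5sl remained lower with the 5 Mb window, at -0.46 (limma adjusted p = 0.000121). Atp5b and Atp5d turned higher, at 0.12 and 0.10 (limma adjusted p = 0.00891 and 0.0308), and Atp5h (0.012, adjusted p = 0.849), Sdha (0.033, adjusted p = 0.461), Cox6b1 (0.064, adjusted p = 0.293), Sdhaf1 (-0.10, adjusted p = 0.43) and Cox19 (-0.15, adjusted p = 0.0809) did not pass. New calls were Sdhb, Sdhd, Uqcrfs1, Uqcrb, Cox5b, Cox6c, Cox16 and Atp5k as higher and Cox11 as lower. Copy number was not measured, and the part of chromosome segments in these differences was not tested.

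**Figure D5:**
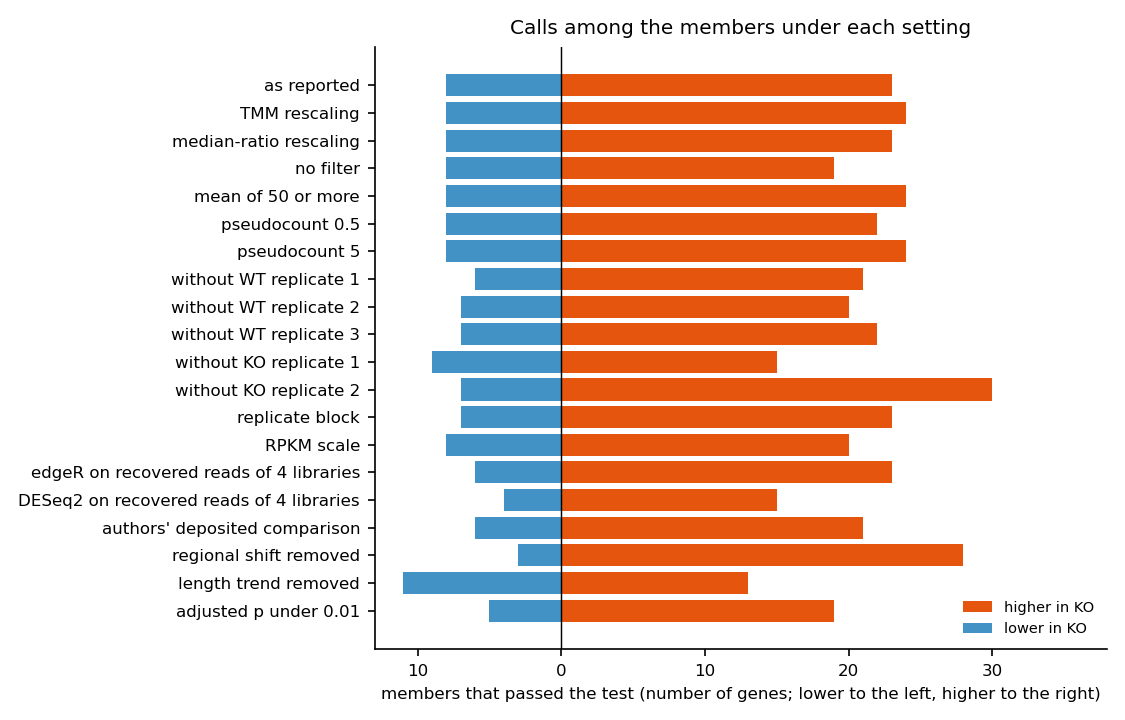
Number of members called higher (right) and lower (left) in the libraries labelled KO, as reported and under 19 other settings of the analysis. Higher members range from 13 to 30 and lower ones from 3 to 11.

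Other genes of the same machinery, from a list of 30 assembly and related factors outside the symbol rule, gave 7 higher and 3 lower of 28 tested, against 32.6% higher and 32.6% lower of all genes tested, with a median of 0.067. The largest changes were those of Coa6 (1810063B05Rik in the table), a copper-handling factor of complex IV, Usmg5, a small subunit associated with ATP synthase, and Lrpprc, which stabilizes mitochondrial messenger RNA. In WT Coa6 was at 164 ± 17.7 (SD, n = 3) normalized counts and in KO at 338 ± 3.89 (SD, n = 2), a log2 fold change of 1.04 (limma adjusted p = 2.08e-07). It lies on chromosome 8 among neighbours with a median of 0.99, and with that removed it was at 0.059 (limma adjusted p = 0.732). Usmg5 rose by 0.63 and Lrpprc by 0.35 (limma adjusted p = 4.37e-06 and 6.21e-08), and neither passed with the neighbour median removed (adjusted p = 0.216 and 0.627).

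Of 14 nuclear regulators of respiratory genes, all tested, 4 were higher and 2 lower (28.6% and 14.3%, beside 32.6% and 32.6% of all genes tested), with a median of 0.067. Pprc1, a coactivator of the PGC-1 family, was at 8513 ± 111 (SD, n = 3) normalized counts in WT and 15300 ± 1240 (SD, n = 2) in KO, a rise of 0.84 (limma adjusted p = 2.06e-13). It lies in the same part of chromosome 19 as Cox15, with a neighbour median of 0.51, and was at 0.33 with that removed (limma adjusted p = 1.04e-06). Polrmt, the RNA polymerase of mitochondria, was at 4313 ± 10.5 (SD, n = 3) in WT and 2763 ± 18.2 (SD, n = 2) in KO, and fell by 0.64 (limma adjusted p = 8.15e-12). Its neighbour median was -0.30, and with that removed it was at -0.34 (limma adjusted p = 2.13e-07). Gabpa, the DNA-binding subunit of GABP, rose by 0.30 (limma adjusted p = 1.26e-06) and overlaps the member Atp5j by 967 bp on the other strand. With the neighbour median removed Gabpa was at 0.27 (limma adjusted p = 6.02e-06). Hcfc1 rose by 0.23 (limma adjusted p = 4.31e-05) and was at 0.19 with the neighbour median removed (adjusted p = 0.000301). Nrf1 rose by 0.22 (limma adjusted p = 0.000259) and was at -0.10 with the neighbour median removed (adjusted p = 0.0694). Yy1 fell by 0.095 (limma adjusted p = 0.0397), but missed the threshold with any 1 of the 5 libraries left out (adjusted p from 0.0602 to 0.101) and was at 0.055 with the neighbour median removed (adjusted p = 0.231). Tfam, the packaging factor of mitochondrial DNA, did not pass, at -0.0023.

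Genes named as complex I subunits, taken for comparison, gave 14 higher and 7 lower of 35 tested, with a median of -0.0069. Of all genes tested, 32.6% were higher and 32.6% lower. KO replicate 1 was above KO replicate 2 for 31 of the 35. These names take in Ndufa4, which is also on the list of assembly and related factors above. Ndufa4 was higher by 0.35 on the log2 scale (limma adjusted p = 1.34e-06) and is counted in both lists. The difference between the genes with complex I names and the members was not tested.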

How the data were processed

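RNA was selected with poly-T beads and, per the labels' protocols, Nextera XT libraries were read on a NextSeq instrument. STAR, DESeq2 and mm10 are named in the submitters' processing notes, with no version or role. The sources used here name no counting program, annotation or strand setting. The authors deposited a normalized signal per gene and library, which is reads divided by a size factor, since 100% of values were whole multiples of 1 step per library within 0.1 reads. They also deposited RPKM values and, per the file headers, a log2 fold change, its standard error, a Wald score and p-values with adjusted p-values.

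The plan named edgeR for raw counts and limma for normalized values, and the values proved to be normalized. The fit was therefore limma 3.58.1 in R 4.3.3 (trended prior, log2 of the value plus 1) over the 13062 genes at 10 or more in at least 2 libraries, two-sided, with Benjamini-Hochberg adjustment. Reads recovered in 4 libraries (without WT replicate 2, whose step is too close to 1 to check) were given to edgeR 4.0.16 and DESeq2 1.42.0 as alternatives. The fit was tested on simulated data. Gene lengths came from the ratio of normalized values to RPKM. Positions and promoters came from RefSeq (GRCm38.p6), found by symbol or synonym for 23058 of 23337 genes, and shared 50-base windows from GENCODE M21. Replicates were compared, and since they differed beyond counting noise each library was counted once.

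Per-library values are given for the 5 called members with the largest change in each of complex II, complex III with cytochrome c, complex IV and complex V, for tissue and c ring isoforms and for Sirt3. The 3 called genes with the largest change are named for each of the other lists. Other genes printed with values were chosen after those values were seen. The members and lists themselves were chosen with earlier results of these data known. Alternatives changed the scaling, filter, pseudocount, library set, test, threshold, regional shift and length trend. The regional shift is the median of the tested genes within 5 Mb on either side, with 2 and 10 Mb as other windows.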

Additional observations from a re-analysis of the deposited data

How the results depend on the processing

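Over the alternatives, the 23 higher members ranged from 15 to 30 with 1 library left out, and were 15 with DESeq2 on recovered reads and 13 with the length trend removed. The 8 lower members ranged from 6 to 9 with 1 library left out, and were 4 with DESeq2, 3 with the regional shift removed and 5 at an adjusted p under 0.01. The median of 0.10 ranged from 0.0085 to 0.19 with 1 library left out. The authors' deposited table called 21 members higher and 6 lower. Cox4nb, counted apart, is left out of the next count. Of the 22 other called members with per-library values, 8 kept their direction and call in all 18 settings, 12 missed the threshold in at least 1, and 5 reversed in 1. With the regional shift removed the reversed values were Atp5h 0.012, Atp5b 0.12, Atp5d 0.10, Sdha 0.033 and Cox6b1 0.064. Cox4nb also reversed there, from 0.65 to -0.31 (limma adjusted p = 5.24e-06). Uncalled Cox7a2 (-0.010) ranged from -0.19 to 0.17 with 1 library left out, and was 0.11 with the regional shift removed and 0.012 with the replicate block. Uncalled Atp5g2 (0.035) ranged from -0.040 to 0.085 with 1 library left out, and was -0.036 with edgeR and -0.041 with DESeq2, both of which also leave out WT replicate 2 (-0.040 in limma without it), and -0.062 with the length trend removed. Same-numbered libraries did not deviate together (correlations -0.015 and 0.023), and with the replicate number as a block 23 members were higher and 7 lower, with a median of 0.11; Uqcrh, Atp5f1 and Cox19 lost their calls and Cox6c and Atp5k gained one. Chosen after seeing the data, dropping the genes counted apart gave 22 and 7, and removing the regional shift with 2 and 10 Mb windows gave 4 and 3 lower members (28 and 26 higher). Shares over all genes are not given for the replicate block, the 0.01 threshold, a WT library left out or the 2 and 10 Mb windows. Counts under those settings are therefore not read as results about the members. The reversed values in those windows were Atp5b 0.13 and 0.19, Atp5d 0.14 and 0.11, Cox6b1 0.055 and 0.052, Cox7a2 0.21 and 0.076, Cox4nb -0.34 and -0.20, and, with 2 Mb alone, Atp5h 0.0093. The 18 settings leave these windows out. Of the 8 members that kept their calls in all 18, Cycs did not pass with 2 or 10 Mb (limma adjusted p = 0.802 and 0.147). Cox7a2l, also among the 8, did not pass with 10 Mb (limma adjusted p = 0.129). The cause of these shifts was not tested. Depth limits the muscle, lung and testis forms, at 0 to 13.9 normalized counts.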
